A study of Mus musculus with 12 samples.

Results

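Ion channel subunit genes were followed in mouse embryonic fibroblasts, a primary culture of connective tissue cells, during treatment with the chemical combinations named 6TCF and SGCF. The members were all genes whose symbol in the array annotation begins with Kcn, Cacn, Grik, Gabr or Clcn, or with Scn, Hcn or Grin followed by a digit, counting only probe sets that carry a single symbol. They numbered 125 of the 12393 genes with such a probe set, and the rule reads symbols only. The genes were sorted by symbol into 16 role groups, from pore-forming potassium channel subunits to glutamate and GABA receptor subunits.

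The series holds 12 arrays of total RNA, in 6 groups of 2: 6TCF at days 0, 5 and 10 and SGCF at the same days. All cells were fibroblasts first grown in serum-containing medium, then changed to a medium richer in serum with added basic fibroblast growth factor; no transgene or genetic change is named, and the mouse strain and embryonic age are not stated. The make-up of both combinations, not given in the sources used here, is left out, and the day 0 arrays carry the name of a combination without a statement of whether RNA was taken before it was added. There is no untreated array at day 5 or 10, so a change from day 0 also contains time in culture. The labels do not tie the 2 arrays of a group to separate cultures, so the p-values may measure only technical spread.

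Voltage-gated and ligand-gated ion channels open a pore through the cell membrane in response to voltage, calcium or a transmitter. Pore-forming alpha subunits pass the ions, and auxiliary subunits set how many channels reach the surface and how they gate. In neurons, sodium and calcium channels carry the action potential and transmitter release, potassium channels end it, and glutamate and GABA receptors receive it; several of the same families also work in smooth muscle, heart and non-excitable cells such as fibroblasts. Array signal reports transcript, not current.

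Most of these genes were dim. Of the 125, 80 (64%) passed the filter on low values, a highest group mean above 5.27 on the log2(intensity + 16) scale, against 10674 of all 12393 genes (86.1%). The median of the highest group mean was 6.05 over the members and 8.32 over all genes. The 45 members below the filter had highest group means of 4.53 to 5.27, and the first member inside it also read 5.27. Since a gene high in 1 group passes by that group, the 80 are not a sample of all members.

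The arrays of a group resembled each other more than those of other groups, with correlations across genes of 0.985 to 0.996 and 0.924 to 0.983. Median deposited intensity was 102.4 to 142 on the 6TCF arrays and 60.9 to 86.2 on the SGCF arrays, so brightness and combination coincide and a batch cannot be told apart from the arm. All 15 of 15 fibroblast markers were above the filter on both arrays of every group. That filter is low, and most of these markers changed in level, as given with the other cell types below. The actin control probe sets read higher at the 3' than at the 5' end by 0.33 to 0.35 at day 0, 0.78 to 0.81 at day 5 and 1.02 to 1.06 at day 10 of 6TCF (log2 difference), and by 0.29 to 0.33, 0.41 to 0.46 and 0.53 to 0.54 in SGCF. The Gapdh control probe sets gave 0.24 and 0.31, 0.59 and 0.41, and 0.48 and 0.46 at days 0, 5 and 10 of 6TCF. In SGCF they gave 0.003 and -0.06, 0.15 and 0.03, and 0.15 and 0.11. The actin measure of RNA integrity moved with the day of treatment, while for Gapdh days 5 and 10 overlapped in both arms. The part of RNA integrity in the changes below was not tested.

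By day 5 of 6TCF, 14 channel genes rose and 4 fell of the 80 tested, a share called of 22.5% against 27.6% of all 10674 genes (higher 15.1%, lower 12.4%). A call is an adjusted p under 0.05 in limma with Benjamini-Hochberg adjustment over all genes tested. By day 10 of 6TCF, 14 rose and 8 fell (27.5% against 43.1%; all genes higher 23.2%, lower 19.9%). By day 5 of SGCF, 12 rose and 9 fell (26.2% against 25.4%; all genes higher 12.8%, lower 12.6%), and by day 10 of SGCF 12 rose and 6 fell (22.5% against 38.6%; all genes higher 20.5%, lower 18.2%). The share of members called lay below that of all genes at day 10 and near it at day 5, a difference that was not tested. Their median log2 change was 0.08, 0.01, 0.07 and 0.03 in the 4 comparisons, against 0.00, -0.01, 0.02 and 0.03 for all genes. Changes of at least 2-fold were 5 up and 2 down at day 5 of 6TCF (all genes 5.33% and 2.65%), 5 and 2 at day 10 of 6TCF (7.8% and 4.68%), 5 and 2 at day 5 of SGCF (3.78% and 3.67%) and 4 and 3 at day 10 of SGCF (5.71% and 4.85%). Without the first day 5 array of SGCF, the count of SGCF day 5 calls was 13 in place of 21.

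**Figure D1:**
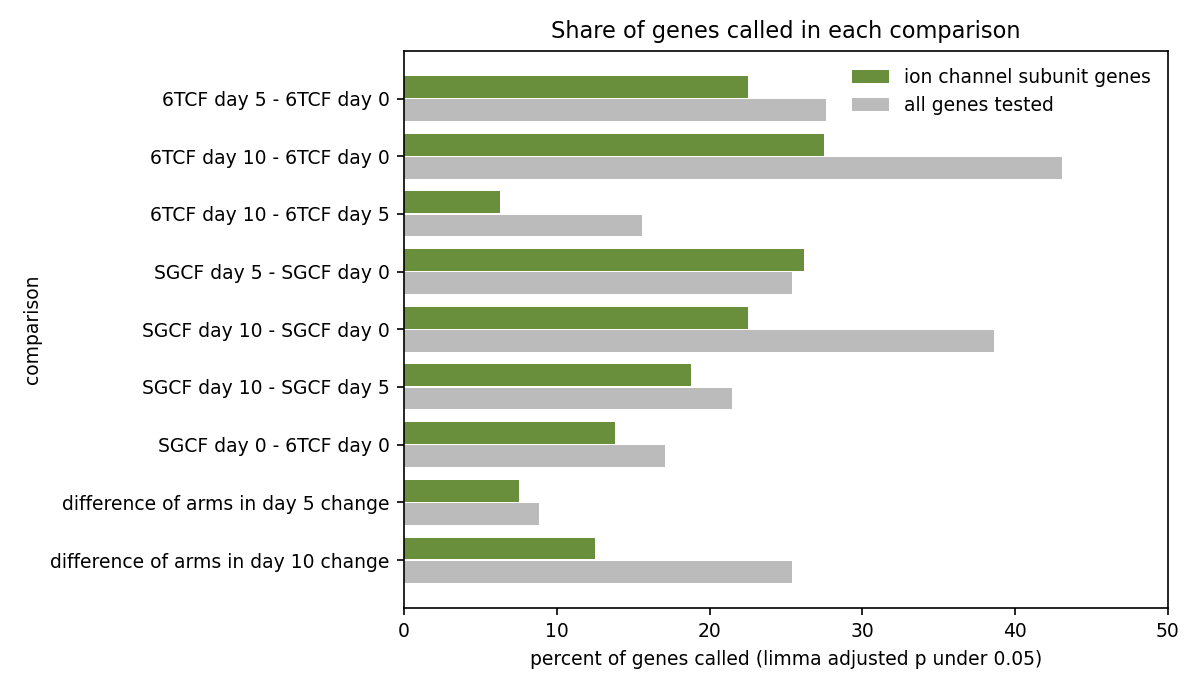
Percent of genes called by limma (x axis) in each of the 9 comparisons (y axis), for the 80 ion channel subunit genes tested and for all 10674 genes tested. The channel genes lie below all genes in every comparison except day 5 against day 0 of SGCF, where the shares are 26.2% and 25.4%.

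Over the 4 changes from day 0, 32 of the 80 genes were called at least once (40%, against 64.5% of all genes) and 48 never. Cacnb2, Grik2, Kcne4, Kcnj8 and Scn3b rose in all 4 (5 genes, 6.25% against 5.21% of all genes), and Kcnab1, Kcnk1 and Kcnmb1 fell in all 4 (3 genes, 3.75% against 4.4%). Cacna2d1, Kcnd2 and Kcnk2 were called in both directions, depending on the arm (3 genes, 3.75% against 4.35%). Each change is set against its own day 0 arrays, and days 5 and 10 of an arm share them, so the 4 comparisons are not independent. Cacnb2 passed the filter only through days 5 and 10, Kcnmb1 only through day 0, and Kcnk1 only through day 0 of 6TCF. They were high there, so their calls involving those groups are not independent of that selection.

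**Figure D2:**
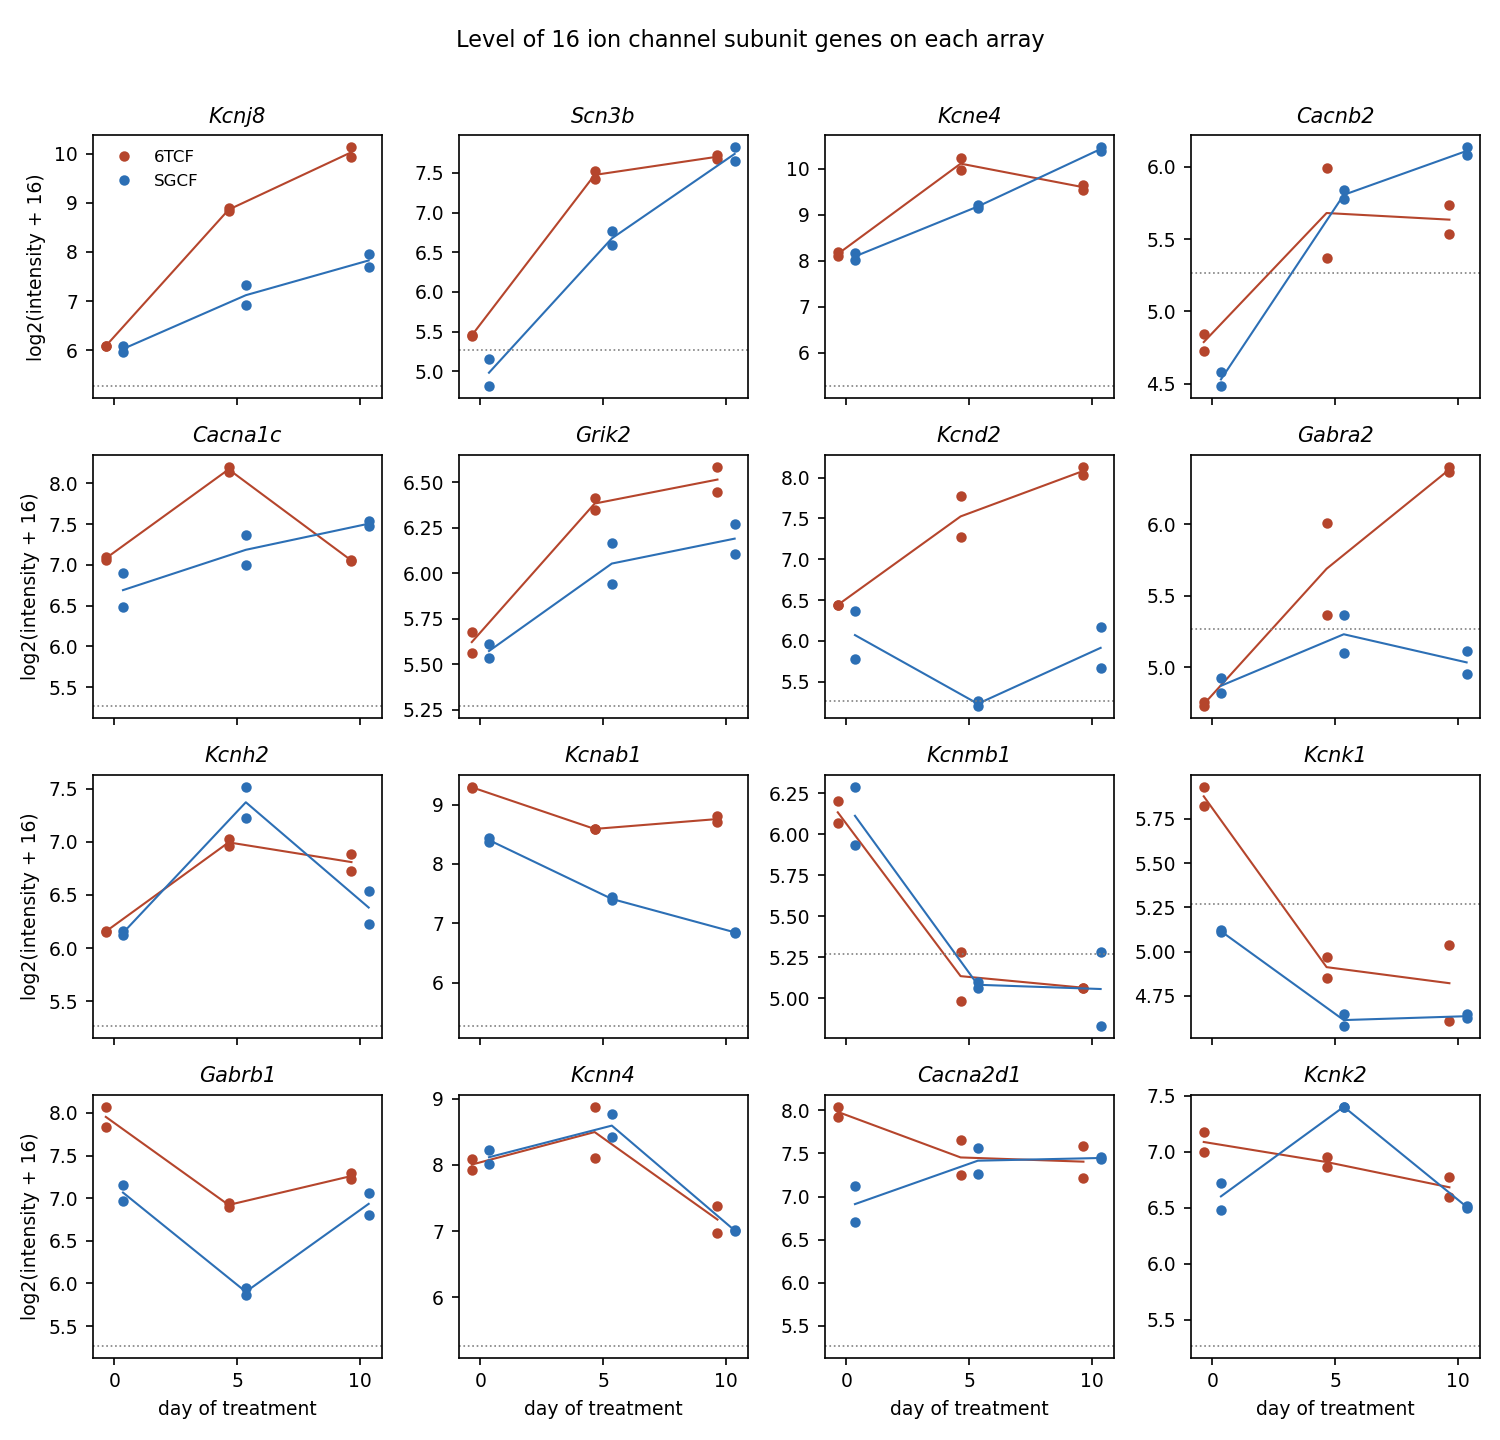
Level of 16 channel genes on each of the 12 arrays, on the log2(intensity + 16) scale (y axis), by day of treatment (x axis). Points are arrays, lines join group means, red is 6TCF and blue SGCF, and the dotted line is the filter at 5.27. Kcnj8 reaches 10.13 and 9.93 at day 10 of 6TCF and 7.69 and 7.96 at day 10 of SGCF.

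The promoter windows of the genes that moved together were read for the core of the cAMP response element, the letters TGACG on either strand (CGTCA when read on the other), a motif known from genes that respond to cAMP. The windows are RefSeq's on GRCm38.p6, 300 bases from 250 before to 50 after an annotated start, and 101 of the 125 members had one. They are shown for the 4 genes that rose in all 4 changes and had a window, and for Kcnmb1 as one that fell, each 5′ to 3′ on the gene's strand with these 5 letters in capitals. The windows are chr6:142571565-142571864 (minus strand) for Kcnj8, chr1:78816661-78816960 (plus) for Kcne4, chr2:14823842-14824141 (plus) for Cacnb2, chr10:49788705-49789004 (minus) for Grik2 and chr11:33962763-33963062 (plus) for Kcnmb1.
Kcnj8: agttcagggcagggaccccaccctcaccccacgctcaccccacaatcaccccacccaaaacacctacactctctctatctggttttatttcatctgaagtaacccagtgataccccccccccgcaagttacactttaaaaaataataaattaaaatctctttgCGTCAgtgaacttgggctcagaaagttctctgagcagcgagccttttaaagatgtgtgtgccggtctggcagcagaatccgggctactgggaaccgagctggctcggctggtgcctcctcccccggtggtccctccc
Kcne4: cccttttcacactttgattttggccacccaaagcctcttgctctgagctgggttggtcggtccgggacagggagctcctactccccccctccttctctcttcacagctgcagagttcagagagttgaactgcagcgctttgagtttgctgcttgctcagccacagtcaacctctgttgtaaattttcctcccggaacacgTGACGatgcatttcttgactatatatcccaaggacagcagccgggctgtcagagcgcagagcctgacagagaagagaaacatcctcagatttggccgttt
Cacnb2: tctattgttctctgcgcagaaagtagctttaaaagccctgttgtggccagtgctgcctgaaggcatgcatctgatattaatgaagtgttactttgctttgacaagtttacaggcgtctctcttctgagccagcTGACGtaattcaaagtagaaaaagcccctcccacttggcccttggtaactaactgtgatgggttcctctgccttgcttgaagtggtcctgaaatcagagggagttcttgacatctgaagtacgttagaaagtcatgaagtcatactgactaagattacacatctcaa
Grik2: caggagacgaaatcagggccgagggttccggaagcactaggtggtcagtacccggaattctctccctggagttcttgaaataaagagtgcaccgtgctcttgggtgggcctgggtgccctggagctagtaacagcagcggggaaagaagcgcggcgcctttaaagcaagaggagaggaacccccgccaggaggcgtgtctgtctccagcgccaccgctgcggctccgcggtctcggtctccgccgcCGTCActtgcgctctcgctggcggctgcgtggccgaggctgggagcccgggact
Kcnmb1: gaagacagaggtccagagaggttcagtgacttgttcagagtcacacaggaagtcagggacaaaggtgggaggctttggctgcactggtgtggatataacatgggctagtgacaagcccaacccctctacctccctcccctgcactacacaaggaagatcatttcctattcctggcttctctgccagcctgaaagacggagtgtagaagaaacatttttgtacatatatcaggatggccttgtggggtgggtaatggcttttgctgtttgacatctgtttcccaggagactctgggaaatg

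The core starts at base 164 of the window in Kcnj8, 201 in Kcne4, 134 in Cacnb2 and 247 in Grik2, and the letters are not in the Kcnmb1 window. Of 32851 windows in the table, 20.8% hold the core and 1.79% the full palindrome TGACGTCA, of which the core is a part. Among the channel genes, 24 of 101 (23.8%) hold the core in at least 1 window, close to the 23% of all 27025 genes. All 4 genes with a window that rose in every change hold it, in 4 of their 5 windows: Cacnb2 has a further window without the core, and the one shown is the match. The full palindrome is in 0 of these 5. Of 9 genes that rose at day 5 in both arms, 6 hold the core (Cacna1c, Cacnb2, Clcn3, Grik2, Kcne4 and Kcnj8), in 6 of 13 windows (46.2%). It is in 0 of the 3 genes that fell in every change and in 9 of the 35 tested genes that were never called (25.7%). The core contains the letters CG, and the sets, drawn from the changes in these data, differ in base composition. The median count of CG was 7 over all windows, 9 for genes that rose in every change and 19 for those that rose at day 5 in both arms. It was 3 for genes that fell in every change and 10 for those never called, and its part in the matches was not tested. These matches describe letters in a window and were not tested; Scn3b had no entry.

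Inward rectifier potassium channels, which hold the resting potential, gave the largest rise of all members in 1 gene. Kcnj8 encodes the pore of an ATP-sensitive potassium channel known from vascular smooth muscle and pericytes. On the log2(intensity + 16) scale it read 6.08 and 6.10 at day 0 of 6TCF, 8.83 and 8.89 at day 5, and 10.13 and 9.93 at day 10. In SGCF it read 5.96 and 6.10 at day 0, 6.92 and 7.32 at day 5, and 7.69 and 7.96 at day 10. Within each arm the arrays of the 3 days did not overlap, the order was day 0, day 5, day 10, and the SGCF arrays lay below the 6TCF arrays at days 5 and 10. The log2 change was 2.77 ± 0.15 (SE) by day 5 and 3.94 ± 0.15 by day 10 in 6TCF, 15.3-fold on this scale (limma adjusted p = 1.4e-07 and 6.43e-09). In SGCF it was 1.09 ± 0.15 and 1.80 ± 0.15, or 3.48-fold by day 10 (limma adjusted p = 0.000254 and 3.23e-06). Of the other 8 genes tested in this group, none rose in any of the 4 changes, and Kcnj12 and Kcnj15 fell at day 5 of SGCF, by 0.50 and 0.56. Kcnj12 passed the filter through day 0 of SGCF alone and Kcnj15 through the day 0 groups alone. They were high there, so these falls are not independent of that selection. Both of these calls were lost without the first day 0 array of SGCF (-0.40 for Kcnj12, -0.25 for Kcnj15), and that of Kcnj12 also without its first day 5 array (-0.29) or second day 0 array (-0.60), that of Kcnj15 without either day 5 array (-0.63 and -0.50).

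Among the auxiliary subunits of potassium channels, which bind a pore and change its gating, 10 of 15 genes were tested and both directions occurred. Kcne4 encodes a single-span membrane subunit that dampens voltage-gated potassium channels. It read 8.19 and 8.11 at day 0 of 6TCF, 10.24 and 9.99 at day 5, and 9.55 and 9.66 at day 10. The SGCF arrays read 8.02 and 8.18 at day 0, 9.22 and 9.15 at day 5, and 10.39 and 10.47 at day 10. The highest day therefore differed between the arms, day 5 in 6TCF and day 10 in SGCF, with no overlap between the days of an arm. The log2 change from day 0 was 1.97 ± 0.13 and 1.45 ± 0.13 at days 5 and 10 of 6TCF and 1.09 ± 0.13 and 2.33 ± 0.13 in SGCF (limma adjusted p = 4.3e-07, 3.18e-06, 5.41e-05 and 8.23e-08).

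Kcnab1, a cytoplasmic beta subunit that speeds inactivation of voltage-gated potassium channels, was lower at days 5 and 10 than at day 0 in both arms. It read 9.28 and 9.30 at day 0 of 6TCF, 8.59 and 8.59 at day 5, and 8.81 and 8.70 at day 10, and in SGCF 8.44 and 8.37, 7.44 and 7.39, and 6.84 and 6.85 at those days. Every SGCF array lay below every 6TCF array. The gene fell by 0.70 and 0.54 in 6TCF and by 0.99 and 1.55 in SGCF (SE 0.11), 2.94-fold lower by day 10 of SGCF (limma adjusted p = 5.41e-07). Kcnmb1, the beta subunit of the large-conductance calcium-activated potassium channel that is typical of smooth muscle, read 6.07 and 6.20 at day 0 of 6TCF and 4.98 to 5.28 on its 4 later arrays. In SGCF it read 6.29 and 5.94 at day 0 and 4.83 to 5.28 later. The day 0 arrays of both arms thus lay above all later arrays, most of which lay below the filter. Kcnmb1 passed the filter through the day 0 groups alone, where it was high, so its falls are not independent of that selection. It fell by 1.00, 1.07, 1.03 and 1.06 in the 4 changes (SE 0.17), about 2-fold each time on this scale (limma adjusted p = 0.000392 to 0.00101). Being dim, it moved with the pseudocount: with 64 in place of 16 the changes were -0.51, -0.54, -0.52 and -0.53, still called. The neural relative Kcnmb4 went the other way, rising by 0.90 ± 0.13 and 0.62 ± 0.13 in 6TCF and by 0.59 ± 0.13 at day 10 of SGCF, with 0.13 at day 5 of SGCF (limma adjusted p = 0.000247, 0.00197, 0.00336 for the calls). Kcnab2 fell by 0.52 at day 10 of SGCF alone among the 4 changes, a call lost without either day 0 array of SGCF (-0.47 and -0.57) or the first day 10 array (-0.39). The other 5 tested genes of the group, Kcnab3, Kcnip1, Kcnip2, Kcnip3 and Kcnmb2, were not called in any of the 4.

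Kcnmb1 and most smooth muscle markers fell from day 0 in both arms. Of 9 markers, 6 and 8 fell at days 5 and 10 of 6TCF and 8 and 8 in SGCF, and none rose. The share called was 66.7% and 88.9% in 6TCF and 88.9% at both days of SGCF. For all genes it was 27.6%, 43.1%, 25.4% and 38.6%. Summed normalized intensity of the markers was 35993 to 36995 at day 0 of 6TCF, 13707 to 15423 at day 5 and 9325 to 10420 at day 10. In SGCF it was 34478 to 35771, 7155 to 7239 and 12160 to 12983. At day 5 the change of 4 of the 9 markers was lower in SGCF than in 6TCF (44.4% called, all genes 8.82%). From day 5 to day 10, 4 fell in 6TCF and 4 rose in SGCF (44.4% called in each, all genes 15.6% and 21.5%). Kcnmb1 was not called in any of these comparisons. Its group means at days 5 and 10 lay below the filter in both arms, so a further fall could hardly be seen. The missing calls therefore do not show a course different from that of the markers. Of 14 macrophage markers, 12, 11, 13 and 13 fell in the 4 changes from day 0, and 1 rose in each (92.9%, 85.7%, 100% and 100% called). Fewer cells of a type and less RNA per cell cannot be told apart in bulk RNA, and the part of either cell type in the change of Kcnmb1 was not tested.

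Of 20 voltage-gated potassium channel alpha subunits, 13 were tested, and Kcnd2, Kcnh1 and Kcnh2 were called in a change from day 0. Kcnd2, an A-type channel of neuronal dendrites and heart, read 6.44 and 6.44 at day 0 of 6TCF, 7.28 and 7.77 at day 5, and 8.13 and 8.04 at day 10. Under SGCF the values were 6.37 and 5.77 at day 0, 5.26 and 5.20 at day 5, and 5.66 and 6.17 at day 10. The days of 6TCF did not overlap and rose in order, while in SGCF day 5 lay lowest and day 10 overlapped day 0. The log2 change was 1.08 ± 0.22 and 1.64 ± 0.22 in 6TCF (limma adjusted p = 0.00299 and 0.000101), 3.12-fold by day 10, and -0.84 ± 0.22 and -0.16 ± 0.22 in SGCF (limma adjusted p = 0.0148 for day 5). The fall at day 5 of SGCF was lost without the first day 0 array (-0.55) or either day 5 array (-0.87 and -0.81). Both day 5 arrays of SGCF lay below the filter. The gene has 2 further probe sets, which rose by 0.81 and 1.02 at day 5 and by 1.13 and 1.40 at day 10 of 6TCF.

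Kcnh2, the pore of the channel that repolarizes the heart, read 6.15 and 6.17 at day 0 of 6TCF, 6.96 and 7.02 at day 5, and 6.73 and 6.89 at day 10. In SGCF it read 6.17 and 6.12, 7.23 and 7.52, and 6.54 and 6.22 at those days. Day 5 was the highest day in both arms. The rise by day 5 was 0.84 ± 0.14 in 6TCF and 1.23 ± 0.14 in SGCF, and by day 10 it was 0.65 ± 0.14 in 6TCF (limma adjusted p = 0.000859, 5.21e-05 and 0.00288), while the day 10 value of SGCF, 0.24, was not called. Its relative Kcnh1 rose by 0.64 and 0.78 at day 5 of the arms, with 0.45 and -0.06 at day 10; the call in 6TCF was lost without the first day 0 array (0.51) or the first day 5 array (0.57), and that in SGCF without the first day 5 array (0.71). The other 10 genes tested, among them Kcna1, Kcna2, Kcnc1 and Kcnq1, were not called in any change from day 0.

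All 8 two-pore potassium channels, which carry background leak currents, passed the filter, and Kcnk1, Kcnk2 and Kcnk5 changed. Kcnk5, an acid-sensitive channel, read 6.04 and 5.93 at day 0 of 6TCF, 7.05 and 6.89 at day 5, and 6.76 and 6.89 at day 10, and in SGCF 5.57 and 5.61, 6.30 and 6.35, and 5.78 and 5.91. It rose by 0.99 ± 0.12 and 0.84 ± 0.12 in 6TCF and by 0.73 ± 0.12 at day 5 of SGCF (limma adjusted p = 6.11e-05, 0.000139 and 0.000634); by day 10 of SGCF, with 0.26, it was not called. Averaging its 2 probe sets gave 0.54, 0.49 and 0.39 for the calls. Kcnk1, a weakly rectifying leak channel, read 5.82 and 5.93 at day 0 of 6TCF and 4.61 to 5.04 on the later arrays. Its SGCF values were 5.11 and 5.12 at day 0 and 4.58 to 4.65 later. Only the day 0 arrays of 6TCF lay above the filter, so Kcnk1 was tested through that group, where it was high. Its falls in 6TCF are not independent of that selection. It fell by 0.96 and 1.05 in 6TCF (limma adjusted p = 0.000307 and 0.000101) and by 0.50 and 0.48 in SGCF (limma adjusted p = 0.0215 and 0.0182). The SGCF call at day 5 was lost without any 1 of its 4 arrays (-0.54 to -0.47), and that at day 10 without the second day 0 array (-0.48) or either day 10 array (-0.47 and -0.49). Kcnk2, a mechanosensitive channel, read 7.18 and 6.996, 6.87 and 6.95, and 6.77 and 6.59 in 6TCF, and 6.73 and 6.48, 7.40 and 7.40, and 6.52 and 6.50 in SGCF. Its rise at day 5 of SGCF, 0.80 ± 0.13 (limma adjusted p = 0.000627), stood apart from the other groups, all of whose arrays were lower. The fall of 0.40 at day 10 of 6TCF was lost without the first day 0 array (-0.31) or the second day 10 array (-0.32).

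Of the potassium channels opened by calcium or sodium, 4 of 6 genes were tested. Kcnn4, the intermediate-conductance channel of blood cells and activated fibroblasts, read 7.92 and 8.08 at day 0 of 6TCF, 8.88 and 8.11 at day 5, and 6.97 and 7.38 at day 10. In SGCF it read 8.22 and 8.01, 8.42 and 8.76, and at day 10 no more than 7.02 on either array. The day 10 arrays were the lowest in both arms, without overlap. By day 10 it fell by 0.83 ± 0.23 in 6TCF and by 1.10 ± 0.23 in SGCF (limma adjusted p = 0.0114 and 0.00246), and the 6TCF call was lost without the second day 0 array (-0.75) or the first day 10 array (-0.62). Kcnma1, the pore that Kcnmb1 joins, fell by 0.68 at day 5 of SGCF, a call lost without either day 0 array (-0.70 and -0.66) or the first day 5 array (-0.46), and averaging its probe sets gave -0.32 (limma adjusted p = 0.0613). Median scaling (-0.60) and a pseudocount of 4 (-0.85) also ended that call (limma adjusted p = 0.078 and 0.0629). In 6TCF its values were -0.09 and -0.11. Kcnn1 and Kcnu1 were not called.

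The pores of voltage-gated sodium channels, which carry the upstroke of the neuronal action potential, were not measured above the filter. All 8 alpha subunit genes on the array, Scn1a, Scn2a, Scn3a, Scn7a, Scn8a, Scn9a, Scn10a and Scn11a, stayed below it in every group. The 1 beta subunit measured, Scn3b, an adhesion-type auxiliary subunit of neuronal sodium channels, rose strongly. It read 5.46 and 5.44 at day 0 of 6TCF, 7.42 and 7.53 at day 5, and 7.68 and 7.73 at day 10. In SGCF it read 5.16 and 4.81, 6.58 and 6.76, and 7.82 and 7.65. The later arrays of both arms lay clear of day 0, and the arms reached like levels at day 10. The rise was 2.02 ± 0.14 and 2.25 ± 0.14 in 6TCF and 1.69 ± 0.14 and 2.76 ± 0.14 in SGCF, 6.76-fold by day 10 of SGCF (limma adjusted p = 7.14e-07, 1.91e-07, 2.97e-06 and 4.82e-08). Averaging its 2 probe sets gave 1.07, 1.32, 0.83 and 1.48, all called.

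Voltage-gated calcium channels join a pore, an alpha2delta and a beta subunit. Of 9 pore genes, 7 were tested, and Cacna1c, the L-type pore of heart, smooth muscle and neurons, had the largest change. It read 7.06 and 7.10 at day 0 of 6TCF, 8.14 and 8.20 at day 5, and 7.04 and 7.06 at day 10. The SGCF values were 6.90 and 6.48, 6.998 and 7.37, and 7.47 and 7.53. In 6TCF the rise was present at day 5 and absent from the day 10 arrays, which overlapped day 0, while in SGCF day 10 was highest. It rose by 1.09 ± 0.16 at day 5 of 6TCF, with -0.03 at day 10, and by 0.49 ± 0.16 and 0.81 ± 0.16 in SGCF (limma adjusted p = 0.000279, 0.0383 and 0.0016 for the calls). The SGCF call at day 5 was lost without the second day 0 array (0.28) or the second day 5 array (0.31). Cacna1d rose by 0.48 at day 10 of 6TCF, not called with a pseudocount of 64 (0.21), and Cacna1g, a T-type pore, by 0.67 at day 10 of SGCF, the latter not called without the second day 10 array (0.57). The other 4 tested pores, Cacna1a, Cacna1b, Cacna1f and Cacna1h, were not called.

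Cacnb2, a beta subunit that carries the pore to the membrane, read 4.73 and 4.85 at day 0 of 6TCF, 5.37 and 5.99 at day 5, and 5.53 and 5.74 at day 10. Its arrays under SGCF read 4.58 and 4.48, 5.77 and 5.84, and 6.08 and 6.14. Both arms went from below the filter at day 0 to above it on every later array. Cacnb2 thus passed the filter only through the later groups, where it was high, and its rises are not independent of that selection. The rise was 0.89 ± 0.17 and 0.85 ± 0.17 in 6TCF and 1.28 ± 0.17 and 1.58 ± 0.17 in SGCF (limma adjusted p = 0.00247, 0.00215, 0.000208 and 2.59e-05). Being dim, it moved with the pseudocount: the day 10 changes were 0.37 and 0.72 with 64 in place of 16, and still called. Leaving out the first day 5 array of 6TCF gave 1.21 and leaving out the second 0.58 at that day. Cacnb1 rose by 0.51 at day 5 of SGCF, not called when its probe sets were averaged (0.01) or without the first day 0 array (0.38) or either day 5 array (0.43 and 0.58). A pseudocount of 64 (0.25) and a fit of the SGCF arm alone also ended that call (limma adjusted p = 0.0699 and 0.0622).

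Cacna2d1, the alpha2delta subunit that raises calcium channel number at the surface, started from different levels in the arms. It read 8.04 and 7.92 at day 0 of 6TCF, 7.65 and 7.25 at day 5, and 7.22 and 7.59 at day 10, and in SGCF 7.12 and 6.71, 7.57 and 7.26, and 7.44 and 7.46. The arms were apart at day 0 and overlapped at days 5 and 10. By day 10 it fell by 0.58 in 6TCF and rose by 0.53 in SGCF (limma adjusted p = 0.0271 and 0.0417). The first call was lost without either day 0 array of 6TCF (-0.52 and -0.64) or the first day 10 array (-0.39), the second without the second day 0 array of SGCF (0.33) or either day 10 array (0.55 and 0.52), and averaging its probe sets gave 0.23 in SGCF. Cacna2d2 and Cacna2d3 changed by 0.11 to 0.52 and were not called. Among the calcium channel gamma and AMPA receptor auxiliary genes, 5 of 8 were tested and none was called, with values of -0.30 to 0.47.

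Both genes of the hyperpolarization-activated pacemaker family were tested. Hcn2 rose by 0.51 and 0.47 at days 5 and 10 of 6TCF, with -0.13 and 0.19 in SGCF. The day 5 call was lost without any 1 of its 4 arrays (0.48 to 0.54), and that at day 10 without either day 0 array (0.45 and 0.50) or the first day 10 array (0.25). A pseudocount of 64 ended both, at 0.24 and 0.22. Hcn3 was not called.

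**Figure D3:**
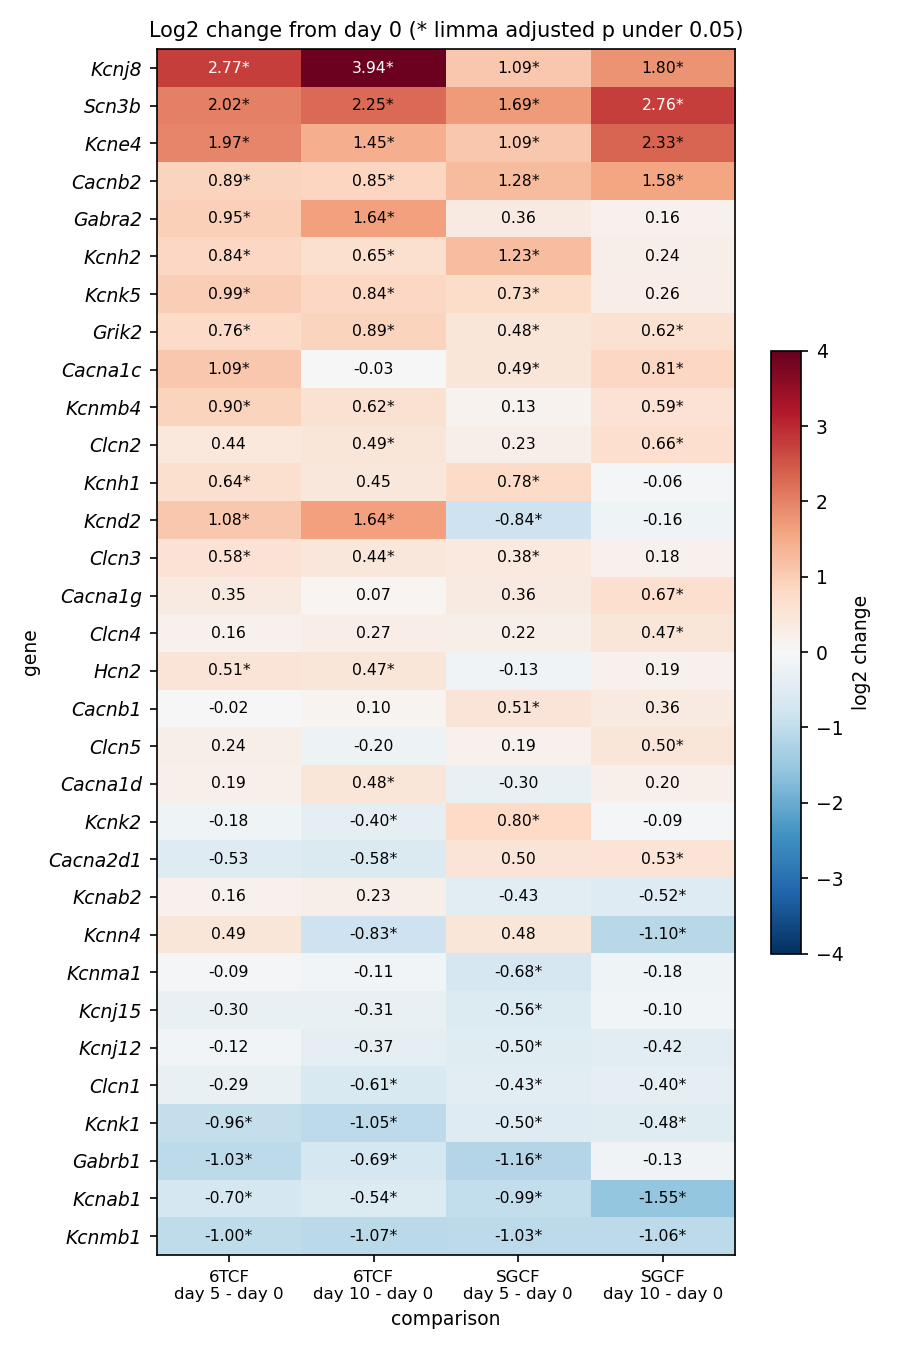
Log2 change from day 0 (colour and number) of the 32 channel genes called in at least 1 of the 4 changes (rows), in the 4 comparisons (columns). An asterisk marks a limma adjusted p under 0.05. Kcnj8, Scn3b and Kcne4 stand at the top, and Kcnab1, Kcnmb1, Gabrb1 and Kcnk1 at the bottom.

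Of the ionotropic glutamate receptor genes, 3 of 4 kainate and 3 of 5 NMDA receptor genes were tested, and 1 kainate gene changed. Grik2, a kainate receptor pore subunit, read 5.68 and 5.56 at day 0 of 6TCF, 6.42 and 6.35 at day 5, and 6.58 and 6.45 at day 10. Under SGCF it read 5.53 and 5.61, 5.94 and 6.16, and 6.27 and 6.11. All later arrays lay above those of day 0. The rise was 0.76 ± 0.12 and 0.89 ± 0.12 in 6TCF and 0.48 ± 0.12 and 0.62 ± 0.12 in SGCF (limma adjusted p = 0.000711, 0.000144, 0.0147 and 0.00217), and the SGCF call at day 5 was lost without the second day 5 array (0.37) and when the arm was fitted alone (limma adjusted p = 0.0616). Grik3, Grik5, Grin2b, Grin2d and Grin3b were not called, with values of -0.48 to 0.51.

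Of 13 GABA receptor subunits, only 3 passed the filter. Gabra2, an alpha subunit of synaptic GABA receptors, read 4.73 and 4.76 at day 0 of 6TCF, 5.37 and 6.01 at day 5, and 6.36 and 6.40 at day 10, while its 6 SGCF arrays read 4.82 to 5.36. It passed the filter through 6TCF alone. The rise was 0.95 ± 0.18 and 1.64 ± 0.18 in 6TCF (limma adjusted p = 0.00225 and 2.41e-05), 3.11-fold by day 10, and 0.36 and 0.16 in SGCF, not called. The day 5 value was 0.62 without the second day 5 array and 1.27 without the first. With a pseudocount of 64 the 6TCF values were 0.42 and 0.81, still called. Gabrb1, a beta subunit, read 7.83 and 8.07 at day 0 of 6TCF, 6.94 and 6.90 at day 5, and 7.30 and 7.22 at day 10, and in SGCF 7.16 and 6.97, 5.86 and 5.94, and 6.80 and 7.06. Day 5 was lowest in both arms, and the SGCF arrays of day 10 overlapped those of day 0. It fell by 1.03 ± 0.13 and 0.69 ± 0.13 in 6TCF and by 1.16 ± 0.13 at day 5 of SGCF, with -0.13 at day 10 (limma adjusted p = 0.000127, 0.00143 and 5.54e-05 for the calls). Gabrp was not called.

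The 7 chloride channel and transporter genes of the Clcn family, most of which serve endosomes and lysosomes, all passed the filter, and none changed 2-fold. Clcn3 rose by 0.58 and 0.44 in 6TCF and by 0.38 at day 5 of SGCF, Clcn2 by 0.49 and 0.66 at day 10 of the arms, and Clcn4 and Clcn5 by 0.47 and 0.50 at day 10 of SGCF. Clcn1, the skeletal muscle channel, fell by 0.61 at day 10 of 6TCF and by 0.43 and 0.40 in SGCF. Apart from the fall of Clcn1 in 6TCF, each of these calls was lost without at least 1 array. Clcn3 without the second day 0 array of 6TCF gave 0.44 and 0.30, at day 10 without the second day 10 array 0.38, and in SGCF without the first day 0 array 0.30, the first day 5 array 0.44 or the second 0.33. Averaging the probe sets of Clcn3 gave 0.29 and 0.16 at day 5 of the arms, neither called. Clcn2 gave 0.23, 0.55 and 0.43 without the second day 0, first day 10 and second day 10 arrays of 6TCF, and 0.50 and 0.59 without the second day 0 and first day 10 arrays of SGCF. Clcn4 gave 0.42 without the second day 10 array of SGCF, and Clcn5 0.22, 0.43 and 0.56 without the second day 0, first day 10 and second day 10 arrays. Clcn1 in SGCF ranged from -0.43 to -0.42 at day 5 without any 1 of its 4 arrays, and at day 10 gave -0.41 and -0.40 without the first and second day 0 arrays and -0.25 without the second day 10 array. Clcn6 and Clcn7 were not called.

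Several of the smaller calls against day 0 also ended under another setting. With a pseudocount of 64 those of Kcnk1 (-0.19 and -0.18) and Clcn1 (-0.21 and -0.20) in SGCF, of Kcnj12 (-0.21), Kcnj15 (-0.24) and Kcnab2 (-0.26) in SGCF and of Clcn2 in 6TCF (0.27) were lost. Median scaling ended those of Kcnj12 (-0.42), Kcnj15 (-0.46), Clcn1 at day 5 (-0.36), Clcn3 at day 5 (0.39) and Clcn5 (0.37), all in SGCF. Averaging probe sets ended those of Kcnab2 (-0.28) and Clcn5 (0.34), a pseudocount of 4 those of Cacna2d1 in SGCF (0.59), Clcn2 in 6TCF (0.62) and Clcn5 (0.50), and no filter those of Kcnj12, Kcnj15, Clcn2 in 6TCF and Clcn5. Fitting SGCF alone ended those of Cacna1c and Clcn3 at day 5, Cacna2d1 and Clcn5 at day 10, Clcn1 at both days, Kcnj12 and Kcnj15.

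The step from day 5 to day 10 was read within each arm, and whether it differed between the arms was not tested. In 6TCF, 2 channel genes rose and 3 fell (6.25% against 15.6% of all genes; all genes higher 8.6%, lower 6.99%): Kcnj8 rose by 1.17 ± 0.15 and Gabra2 by 0.69 ± 0.18, and Kcnn4 fell by 1.32 ± 0.23, Cacna1c by 1.12 ± 0.16 and Kcne4 by 0.51 ± 0.13 (limma adjusted p = 0.00102, 0.027, 0.004, 0.00144 and 0.0194). At least 2-fold were 1 rise and 2 falls (all genes 1.45% and 0.778%). The count was 2 without the first day 10 array of 6TCF and 3 without the first day 5 or second day 10 array. Kcnn4 lost its call without the first day 10 array (-1.11), Gabra2 without the first day 5 array (0.37) or either day 10 array (0.71 and 0.68), and Kcne4 without the first day 5 array (-0.38) or either day 10 array (-0.46 and -0.57). In SGCF, 8 rose and 7 fell (18.8% against 21.5%; all genes higher 11.6%, lower 9.89%). Kcne4 rose by 1.25 ± 0.13, Scn3b by 1.06 ± 0.14 and Gabrb1 by 1.03 ± 0.13, and Kcnn4 fell by 1.58 ± 0.23 (limma adjusted p = 3.84e-05, 0.000225, 0.000239 and 0.000447). At least 2-fold were 3 rises and 1 fall (all genes 3.27% and 2.12%). Kcnh2, Kcnk2 and Kcnh1 also fell, with changes of -0.99, -0.89 and -0.84, coming back from their day 5 levels. The SGCF count was 9 without the first day 5 array of SGCF and when the arm was fitted alone. Kcnj8 rose by 0.71, a call lost without the first day 5 array (0.50) or the second day 10 array (0.57), and the fall of Kcnab1 by 0.56 was -0.10 when its probe sets were averaged. Of the other calls, Kcnd2 rose by 0.69, Cacna1d by 0.49, Kcnk3 by 0.48 and Kcnmb4 by 0.46, and Kcnk5 and Kcna7 fell by 0.48 each; all 6 were lost when SGCF was fitted alone. Kcnd2 was also lost without either day 5 array (0.72 and 0.65) or the second day 10 array (0.43), and Cacna1d without the second day 5 (0.41) or second day 10 array (0.44). Kcnk3 (0.44 to 0.52) and Kcnmb4 (0.40 to 0.52) were lost without any 1 of the 4 arrays, and averaging probe sets gave 0.06 for Kcnk3. Kcnk5 was lost without either day 5 array (-0.50 and -0.45) or the first day 10 array (-0.41) and when probe sets were averaged (-0.25), and Kcna7 without the first day 5 (-0.28) or first day 10 array (-0.32). A pseudocount of 64 ended the calls of Kcnd2 (0.35), Cacna1d (0.22), Kcnk3 (0.27) and Kcna7 (-0.29).

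Whether the change from day 0 differed between SGCF and 6TCF was tested as an interaction, which was called for 6 channel genes at day 5 (7.5% against 8.82% of all genes) and for 10 at day 10 (12.5% against 25.4%). At day 5, the SGCF change was the higher for 2 genes and the lower for 4 (all genes 2.85% and 5.97%), and at day 10 for 4 and 6 (all genes 12.1% and 13.3%). Differences of at least 2-fold were 1 higher and 2 lower at day 5 (all genes 1.3% and 3.88%) and 1 higher and 4 lower at day 10 (4.23% and 5.84%). The day 10 count was 6 without either day 0 array or the first day 10 array of 6TCF. Kcnj8 rose less in SGCF, with differences (SGCF minus 6TCF) of -1.68 ± 0.22 at day 5 and -2.14 ± 0.22 at day 10, a 4.41-fold smaller rise (limma adjusted p = 0.000574 and 7.59e-05). Kcnd2 differed by -1.93 ± 0.31 and -1.80 ± 0.31 at the same days (limma adjusted p = 0.00221 and 0.0021), and the other probe sets of Kcnd2 by -1.21 and -1.59 at day 5 and -1.15 and -1.44 at day 10. Gabra2 differed by -1.47 ± 0.26 and Kcnab1 by -1.02 ± 0.15 at day 10 (limma adjusted p = 0.00228 and 0.000818). Gabra2 passed the filter through 6TCF alone, where it was high, so its test is not independent of that selection. The second probe set of Kcnab1 gave -0.28 and was not called, and Gabra2 with a pseudocount of 64 gave -0.75, still called. Kcne4 changed sign, from -0.88 ± 0.18 at day 5 to 0.88 ± 0.18 at day 10 (limma adjusted p = 0.00828 and 0.00483). Kcnk2 differed by 0.98 ± 0.18 at day 5 (limma adjusted p = 0.00484).

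The remaining differences were less firm. Cacna2d1 differed by 1.03 and 1.11 at days 5 and 10, with calls lost at day 5 without either day 0 array of 6TCF (0.97 and 1.09), its second day 5 array (0.83), the second day 0 array of SGCF (0.83) or its first day 5 array (0.88), and at day 10 without the first day 10 array of 6TCF (0.93); averaging its probe sets gave 0.54 at day 5, not called. Cacna1c differed by 0.84 at day 10, lost without either day 0 array (0.86 and 0.82) or the first day 10 array (0.83) of 6TCF, or the second day 0 (0.63) or second day 10 array (0.81) of SGCF. Cacnb2 differed by 0.73, lost without any 1 of the 8 arrays (0.63 to 0.83), with median scaling (0.62), a pseudocount of 64 (0.35) and no filter. Kcnab2 differed by -0.76, lost without any 1 array except the second day 10 array of SGCF (-0.89 to -0.62 over the 8), and with a pseudocount of 64 (-0.37) or averaged probe sets (-0.40). Kcnk5 differed by -0.59, lost without either day 0 array (-0.64 and -0.53) or day 10 array (-0.65 and -0.52) of 6TCF or the first day 10 array of SGCF (-0.52), and when probe sets were averaged (-0.35). Kcnmb4 differed by -0.77 at day 5, lost without either day 0 array (-0.71 and -0.83) or the second day 5 array (-0.64) of 6TCF or the first day 5 array of SGCF (-0.71). For Scn3b the difference was -0.33 ± 0.19 at day 5 and 0.51 ± 0.19 at day 10, and for Kcnmb1 it was -0.03 ± 0.24 and 0.01 ± 0.24, none called.

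**Figure D4:**
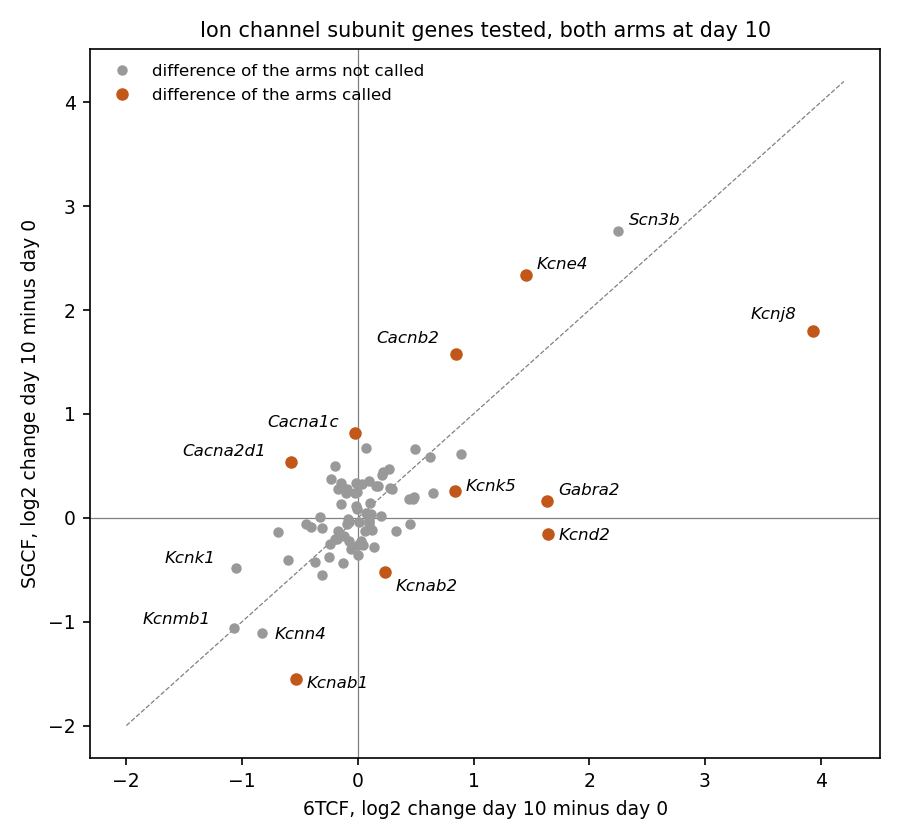
Log2 change from day 0 to day 10 of the 80 channel genes tested, 6TCF on the x axis and SGCF on the y axis. Orange points are the 10 genes whose change differed between the arms, the dashed line marks equal change, and Kcnj8 (3.94 and 1.80), Kcnd2 (1.64 and -0.16) and Gabra2 (1.64 and 0.16) lie farthest below it. Gabra2 passed the filter through 6TCF alone.

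At day 0 itself 3 channel genes were higher and 8 lower in SGCF than in 6TCF (13.8% against 17.1% of all genes; all genes higher 8.52%, lower 8.61%). Cacna2d1 was lower by 1.07 ± 0.19, 2.10-fold, Kcnab1 by 0.89 ± 0.11, Gabrb1 by 0.89 ± 0.13 and Kcnk1 by 0.76 ± 0.14 (limma adjusted p = 0.00425, 0.000444, 0.00194 and 0.00546). Kcnk1 passed the filter through day 0 of 6TCF alone, where it was high, and its call was lost without the second day 0 array of 6TCF (-0.71). The other 7 calls were smaller, and each was lost without at least 1 array. Kcnab2 (0.77), Kcnc1 (0.74) and Cacna1d (0.38) were higher in SGCF, and Clcn3 (-0.58), Kcnk2 (-0.49), Scn3b (-0.47) and Kcnk5 (-0.39) lower. Without the first day 0 array of 6TCF, Clcn3 gave -0.44, Kcnab2 0.72, Kcnc1 0.69, Kcnk2 -0.39 and Scn3b -0.46, and without the second Kcnab2 gave 0.82, Kcnc1 0.78, Kcnk2 -0.58 and Scn3b -0.48, none called. Without the second array of SGCF, Kcnc1 (0.56), Kcnk2 (-0.36) and Scn3b (-0.30) were not called, and Cacna1d (0.35 to 0.41) and Kcnk5 (-0.44 to -0.34) were lost without any 1 of the 4. A pseudocount of 64 ended the calls of Kcnc1 (0.34), Cacna1d (0.16), Scn3b (-0.20) and Kcnk5 (-0.21), and median scaling (-0.37 and -0.32) and averaged probe sets (-0.26 and -0.15) those of Scn3b and Kcnk5. A single gene, Cacna2d1, was at least 2-fold lower and 0 higher (all genes 1.2% and 0.853%). The count was 4 without either day 0 array of 6TCF and 6 without the second of SGCF. The interaction values above use these same day 0 arrays. The macrophage markers also differed at day 0, 13 of 14 being higher in SGCF, with a summed normalized intensity of 3662 to 3862 in 6TCF and 8129 to 8989 in SGCF; it was 1064 to 1222 and 1912 to 2028 at days 5 and 10 of 6TCF, and 750 to 964 and 734 to 865 in SGCF. Kcnn4, known from macrophages too, differed by 0.11 at day 0 and was not called, and the part of these cells in the other values was not tested.

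The arms shared many of their calls. Of the channel genes that rose at day 5, 10 rose in both arms, 71.4% of those of 6TCF and 83.3% of those of SGCF; for all genes the shares were 48% and 56.8%. At day 10, 7 rose in both (50% and 58.3%; all genes 49.5% and 56%). The 4 that fell at day 5 of 6TCF also fell in SGCF (100% and 44.4%; all genes 47.7% and 47%), and 5 fell in both at day 10 (62.5% and 83.3%; all genes 45.5% and 49.9%). Kcnd2 at day 5 and Cacna2d1 at day 10 were called in opposite directions.

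Other ion channels and receptors outside the symbol rule were read from a list of 47, of which 39 were on the array and 33 were tested. At day 5, 5 rose and 7 fell in 6TCF and 7 rose and 6 fell in SGCF (36.4% and 39.4% called, all genes 27.6% and 25.4%). At day 10, 9 rose and 10 fell in 6TCF and 7 rose and 9 fell in SGCF (57.6% and 48.5% called, all genes 43.1% and 38.6%). These genes were called more often than all genes, a difference that was not tested. Their median log2 change lay between -0.07 and 0.11, beside -0.01 to 0.03 over all genes. Gria1, the AMPA receptor pore, rose by 4.51 ± 0.15 and 4.99 ± 0.15 in 6TCF and by 1.87 ± 0.15 and 3.77 ± 0.15 in SGCF. Trpc6, a calcium-permeable cation channel of smooth muscle and fibroblasts, rose by 1.62, 1.47, 1.67 and 1.02, and Trpv2 fell by 0.94, 1.25, 1.45 and 0.88. The muscle acetylcholine receptor subunit Chrna1 rose by 2.25 and 1.93 in 6TCF and by 3.43 at day 5 of SGCF. Of 42 channel partners, scaffolds and regulators listed, 24 were tested. In the 4 changes 7, 7, 6 and 7 rose and 4, 5, 1 and 5 fell (45.8%, 50%, 29.2% and 50% called). Their median log2 change was 0.09, -0.04, 0.14 and 0.12, and the lowest was -0.89, -2.33, -0.42 and -1.23. Summed normalized intensity was 8448 to 8744 at day 0 and 5526 to 5631 at day 10 of 6TCF, and 5913 to 6751 and 7840 to 7976 in SGCF. The genes named next are from those that rose. Ank3, which anchors sodium channels at the axon initial segment, rose by 2.06, 1.14, 2.18 and 2.59, and Gem and Rem2, small GTPases that bind calcium channel beta subunits, rose by 1.63, 2.19, 1.48 and 2.79 and by 1.58, 0.90, 1.58 and 0.63. Neto1, an auxiliary subunit of kainate receptors, rose by 1.20 and 1.29 in 6TCF.

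Of 29 neuronal markers, 20 were tested, and 7, 6, 7 and 7 rose and 1, 3, 3 and 4 fell, with median log2 changes of 0.25, 0.27, 0.32 and 0.08. The share called was 40%, 45%, 50% and 55%, against 27.6%, 43.1%, 25.4% and 38.6% of all genes. The shares of the marker lists were not tested against those of all genes. The neurofilament genes Nefl and Nefm, Gap43 and Snap25 rose in all 4, Nefl by 3.95, 2.34, 5.15 and 1.73. The changes of Tubb3 were -0.87, -1.67 and -1.80 in the last 3 and those of Ncam1 -0.93, -1.65, -1.08 and -1.11. Their summed normalized intensity was 3168 to 3218 at day 0, 5954 to 6940 at day 5 and 3717 to 4414 at day 10 of 6TCF, and 2471 to 2634, 9263 to 9491 and 3829 to 4880 in SGCF. Of 13 skeletal muscle markers, 0, 7, 2 and 1 rose and 1, 2, 1 and 2 fell in the 4 changes, and of 12 cardiac markers 0, 2, 3 and 2 rose and 3, 3, 2 and 2 fell. The shares called were 7.69%, 69.2%, 23.1% and 23.1% for skeletal muscle and 25%, 41.7%, 41.7% and 33.3% for cardiac markers. The day 10 arrays of 6TCF were uneven in both, with summed intensities of 1023 and 3266 for skeletal muscle and 591 and 1865 for cardiac markers. Of 9 epithelial and endocrine markers, 5, 7, 1 and 1 rose and 0, 0, 1 and 1 fell (55.6%, 77.8%, 22.2% and 22.2% called). Of 13 glial and neural crest markers, 5, 5, 5 and 4 rose and 2, 3, 1 and 3 fell (53.8%, 61.5%, 46.2% and 53.8% called). Among 7 endothelial markers 3, 2, 2 and 2 rose and 1, 2, 0 and 1 fell (57.1%, 57.1%, 28.6% and 42.9% called). Of 15 fibroblast markers, 7, 6, 5 and 7 rose and 5, 7, 7 and 4 fell (80%, 86.7%, 80% and 73.3% called). Their log2 changes reached -3.72 at day 5 of SGCF and 5.22 at day 10 of 6TCF. The part of any of these cell types in the channel genes was not tested.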

How the data were processed

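RNA of 12 arrays (Affymetrix Mouse Genome 430A 2.0) was measured. The authors deposited linear intensity values for 22690 probe sets; RMA, limma and MAS5 appear without roles in the submitters' processing notes, and array medians differed, so the values were quantile-normalized here without the 64 control probe sets and taken to log2(intensity + 16), which understates changes of dim genes. Of the probe sets, 20380 had 1 symbol, 691 several and 1555 none, and 125 of 125 member symbols matched a RefSeq table of GRCm38.p6 by Entrez number. The brightest probe set stood for a gene, and genes whose highest group mean exceeded the 25th percentile (5.27) were kept. Tests used limma 3.58.1 in R 4.3.3 on 6 group means (6 residual and 5.53 prior degrees of freedom) with Benjamini-Hochberg adjustment over 10674 genes in 9 comparisons, checked on simulated data. Errors are standard errors of the fit; precision is limited by having 2 arrays a group. Named genes were the 8 largest called, non-overlapping, at least 2-fold rises and falls from day 0, the 4 largest elsewhere, the largest of each role group and all of small ones; further members are named beside them. Members, lists and tests were chosen with earlier results of these data known.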

Additional observations from a re-analysis of the deposited data

Results flagged for a closer look

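Groups held 2 arrays each, too few to search for outlying arrays, so the results listed here are the channel genes whose change from day 0 differed between the arms in the interaction test of limma. Values are the SGCF change minus the 6TCF change on the log2 scale.

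By day 5 the difference was -1.93 for Kcnd2, -1.68 for Kcnj8, -0.88 for Kcne4 and -0.77 for Kcnmb4, and it was 1.03 for Cacna2d1 and 0.98 for Kcnk2. By day 10 it was -2.14 for Kcnj8, -1.80 for Kcnd2, -1.47 for Gabra2, -1.02 for Kcnab1, -0.76 for Kcnab2 and -0.59 for Kcnk5, and it was 1.11 for Cacna2d1, 0.88 for Kcne4, 0.84 for Cacna1c and 0.73 for Cacnb2. Gabra2 was tested only because it was high in 6TCF, the arm through which it passed the filter. Kcnj8, Kcnd2, Kcne4 and Cacna2d1 appear at both days, which share the day 0 arrays, and Kcne4 does so with opposite signs. For Kcnd2 the arms were called in opposite directions at day 5, with changes of 1.08 in 6TCF and -0.84 in SGCF. The SGCF arrays of that day lay below the filter, and the SGCF call was lost without the first day 0 array or either day 5 array.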

How the results depend on the processing

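Of 126 called values of channel genes, 71 kept their call in all alternatives and 55 lost it in at least 1, 53 of these when an array was left out. Under any alternative 0 changed sign, but the values were selected as called on these same arrays, so this says little about direction. A pseudocount of 64 ended 22 calls and moved 63 values over 1.5 times, averaging probe sets ended 15 of 123 and moved 29, fitting an arm alone ended 16 of 99, median scaling 12, no filter 9, a pseudocount of 4 ended 6, and a filter on the mean of all arrays 0 of 116. The replicate numbers gave no clear sign of pairing: deviations of same-numbered arrays correlated at -0.27 to 0.11 over 15 pairs, with 6 of 12 arrays correlating best with their own number. The 2 arrays of a group deviate by equal and opposite amounts, so this check cannot exclude a pairing. The replicate block left 17, 22, 5, 19, 17, 13, 8, 6 and 11 genes called where 18, 22, 5, 21, 18, 15, 11, 6 and 10 were called without it. It ended 12 calls, among them that of Hcn2 at day 5 of 6TCF (limma adjusted p = 0.0541). The count for day 10 against day 5 of SGCF went from 15 to 9 with the arm fitted alone. Leaving out 1 array in turn gave 17 to 20 (day 5) and 17 to 19 (day 10) for 6TCF against day 0, 2 to 6 for its later step, 13 to 17, 12 to 18 and 9 to 13 for SGCF, 4 to 15 between the arms at day 0, and 4 to 8 and 6 to 12 for the differences between the arms. A lone remaining array was assumed to vary like the other groups. Of 79 values of named genes not called, 16 of 924 repeats gained a call and 74 changed sign near 0. Many members were near background, which limits small changes.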

Other observations

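The pore gene Kcnj8 forms a channel together with a sulfonylurea receptor, and both partner genes were looked up after the values of Kcnj8 were seen. Abcc9, its usual partner and the gene that follows Kcnj8 in RefSeq order on GRCm38.p6, read 4.46 to 4.83 on the 12 arrays and stayed below the filter. Abcc8 read 4.70 to 5.37 and passed it through a highest group mean of 5.32. A low reading of 1 probe set does not show that a transcript is absent.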
